A study of Homo sapiens with 6 samples.

Results

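The genes described here encode the S100 proteins and the annexins, the 2 families of calcium-responsive proteins that bind one another at cell membranes. They were chosen by symbol from the table of gene levels, without entries described as pseudogenes, which gave 25 genes of 31835 in all, 13 of the S100 family and 12 annexins. S100A8 and S100A9 fit the choice by symbol but had no entry in the table, so nothing is said of them here. The same holds for any other S100 gene outside these 13 that fits that choice. RNA-seq gave their levels in MDA-MB-231 cells, a cell line of mesenchymal, triple-negative breast cancer. The study compared 3 libraries from cells given the vector with 3 libraries from cells given ADAMTS1, a secreted metalloprotease of the extracellular matrix, and its title concerns the zymogen of that enzyme in the nucleus, chemoresistance and metastasis. All 6 libraries were of this 1 line. No further allele, dose, time or drug treatment was given for either group in the sources used here, nor the form of ADAMTS1 encoded or whether the cells were 1 clone or a pool. Nothing in the labels ties the libraries of a group to separate cultures, so p-values measure only the spread between these libraries, which may be technical.

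S100 proteins are small proteins with EF-hand calcium-binding sites, most of which form dimers. Calcium opens a hydrophobic face on the dimer that grips target proteins, among them the N-terminal tails of annexins. Annexins carry a core of repeats that binds acidic phospholipids when calcium is raised, and they act in membrane repair, in vesicle traffic and in the linkage of membranes to actin. The best known complex joins annexin A2 with S100A10, an S100 protein that needs no calcium, into a tetramer that binds plasminogen and its activators at the cell surface. Several members, such as S100A4, are known from work on the spread of breast tumours.

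Of the 25 genes, 17 had a mean of at least 1 FPKM over the 6 libraries and were tested, 8 S100 genes and 9 annexins. FPKM are fragments scaled to transcript length and to the mapped fragments of the library. Levels can thus be roughly compared between genes, less so where genes may share reads. None of the 17 passed the threshold, a limma adjusted p under 0.05 over all 11897 tested genes, which 0.0672% of all tested genes passed (0.0588% as higher and 0.00841% as lower in the ADAMTS1 libraries). The lowest adjusted p among them was 0.175, that of S100A11. At an unadjusted p under 0.05 there were 4 (23.5% of 17), beside 12.2% of all tested genes. Of these, S100A11 and ANXA2 were higher in the ADAMTS1 libraries (5.42% of all tested genes were higher at this p), and S100A13 and ANXA6 were lower (6.78% were lower). The 3 values of each group did not overlap in 7 of the 17, against 18.8% of all tested genes. In 5 of the 7 the ADAMTS1 libraries were the higher (8.15% of all tested genes) and in 2 the lower (10.6%). The median difference over the 17 was 0.017 on the log2(FPKM + 1) scale, with 9 positive and 8 negative, beside a median of −0.0078 over all tested genes. Under scaling to a common upper quartile the split was 11 positive and 6 negative. In such bulk samples, fewer cells of a type and less RNA per cell cannot be told apart.

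All the differences were small. For each of the 17 genes the 95% interval of the difference lay inside 1.5-fold in either direction on the log2(FPKM + 1) scale, as it did for 94.0% of all tested genes. With a pseudocount of 0.1 in place of 1 this held for 16 of the 17, since the interval of ANXA9 then reached 0.62, past the 0.585 that stands for 1.5-fold. With the pseudocount of 1 the interval reached farthest up in ANXA9, to 0.44, and farthest down in S100A13, to −0.41. A standard error of 0.024 to 0.14 on this scale set those widths, the narrowest being those of ANXA1 and ANXA2 and the widest that of ANXA9.

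**Figure D1:**
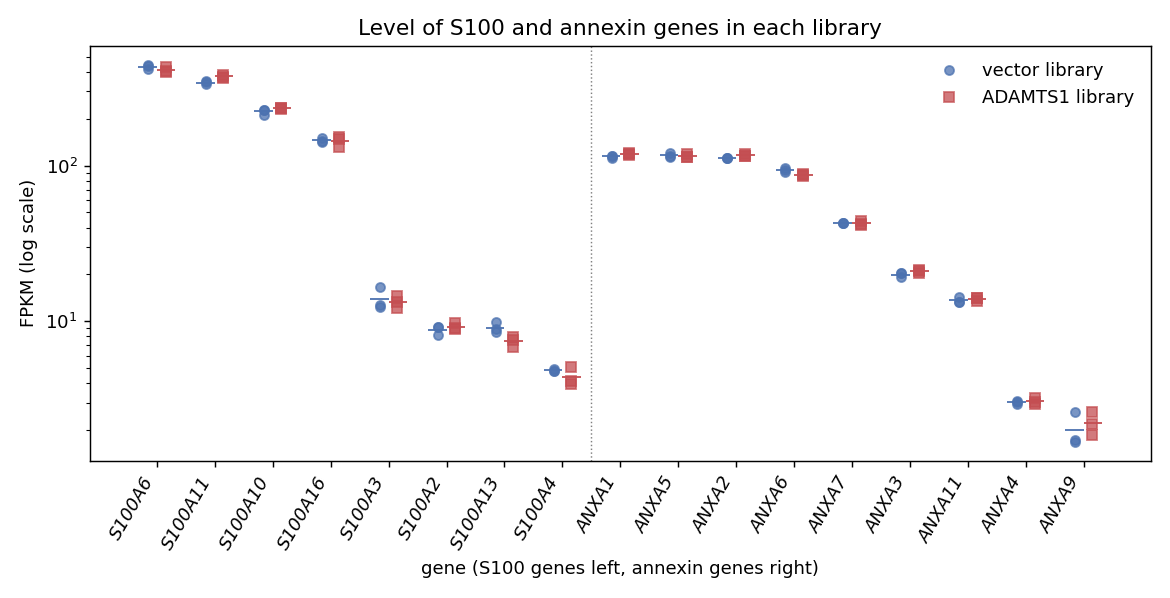
FPKM on a log scale of the 17 tested genes, S100 genes on the left and annexins on the right. Circles are vector libraries, squares are ADAMTS1 libraries and short lines are the means of 3 libraries. S100A6, S100A11, S100A10 and S100A16 stand above the other S100 genes, and the symbols of the groups nearly coincide.

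The promoter-side sequences of the 4 genes with an unadjusted p under 0.05 are shown because these genes had the smallest p-values among the members. They come from RefSeq (GRCh38.p14) and run 5′ to 3′ on the minus strand that holds each gene. They lie in the 250 bases before a start site inside the deposited span. For S100A11, ANXA2 and S100A13 that start lies inside the gene, at 152037004, 60397986 and 153627505, short of outer ends at 152047907, 60402883 and 153631360. Bases annotated as untranslated region in GENCODE 29 were left out, so each stretch stops short of the start. Capitals mark matches to the searched motifs, on either strand: the TATA box TATAAA, the GC box GGGCGG, the CCAAT box CCAAT, the AP-1 site TGANTCA and the E-box CACGTG.
S100A11, chr1:152037036-152037254: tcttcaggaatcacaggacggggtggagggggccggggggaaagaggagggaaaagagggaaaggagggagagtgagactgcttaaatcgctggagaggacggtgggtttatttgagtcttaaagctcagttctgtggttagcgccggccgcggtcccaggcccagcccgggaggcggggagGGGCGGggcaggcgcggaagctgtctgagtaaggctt
ANXA2, chr15:60398044-60398236: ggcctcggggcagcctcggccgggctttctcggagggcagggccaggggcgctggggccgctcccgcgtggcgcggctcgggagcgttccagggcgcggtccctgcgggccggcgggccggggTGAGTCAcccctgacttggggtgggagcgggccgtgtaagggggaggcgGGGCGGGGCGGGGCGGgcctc
ANXA6, chr5:151157883-151158029: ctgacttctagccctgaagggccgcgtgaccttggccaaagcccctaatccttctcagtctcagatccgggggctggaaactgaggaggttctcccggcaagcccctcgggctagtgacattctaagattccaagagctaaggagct
S100A13, chr1:153627599-153627755: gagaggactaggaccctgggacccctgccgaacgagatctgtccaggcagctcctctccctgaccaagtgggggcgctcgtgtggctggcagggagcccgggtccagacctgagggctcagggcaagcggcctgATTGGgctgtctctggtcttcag

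The S100A11 stretch held 1 GC box, which begins 68 bases before the start. The ANXA2 stretch held an AP-1 site 127 bases before the start and a run of 3 GC boxes that begin 78, 73 and 68 bases before it. In S100A13 the only match in the printed stretch was a CCAAT box, read on the other strand, and in ANXA6 there was none. In the parts not printed, the S100A13 and ANXA2 windows each had a TATA box, and the ANXA6 window had a GC box, a CCAAT box and an E-box. A promoter was used for 23 members, and ANXA8 and ANXA13 had none used here. Of these 23, 10 held a GC box in the whole 250 bases, against 42.6% of all 35116 promoters. The 2 sides were not built alike. Each member was given 1 start, near the outer end of its deposited span, while all promoters were counted without such a choice. The TATA box was in 7 (10.7% of all promoters), the CCAAT box in 6 (32%), the AP-1 site in 4 (6.57%) and the E-box in 2 (6.34%). A match describes letters, not binding. Promoter windows of the 17 tested genes had a median of 18 CpG dinucleotides (0 to 31). Those of the 6 genes under the level filter whose promoter was used had a median of 4 (0 to 6), with 11 over all promoters. By family the median was 4 in 13 S100 genes and 19.5 in 10 annexins. Among tested genes alone, the number was 1 (S100A16) to 24 (S100A10 and S100A6) in S100 genes. In tested annexins it was 0 (ANXA1) to 31 (ANXA5). The S100 genes under the filter had 1 (S100A5) to 6 (S100A1), and ANXA10 had 0. How far level and family each go with the number was not tested.

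S100A11, also called calgizzarin, binds the tail of annexin A1 and takes part in membrane repair and growth control. The gene (ENSG00000163191, hg38 chromosome 1, 152032506 to 152047907, minus strand) was at 332, 348 and 343 FPKM in the vector libraries and at 374, 385 and 367 FPKM in the ADAMTS1 libraries. Every ADAMTS1 library thus lay above every vector library. The group levels were 341 ± 7.93 and 375 ± 9.04 FPKM (SD, n = 3 each), a ratio of 1.10. The difference was 0.14 ± 0.028 on the log2(FPKM + 1) scale (limma unadjusted p = 0.00167, adjusted p = 0.175). With each library left out in turn it ranged from 0.12 to 0.15, with an adjusted p of 0.285 to 0.359. Both S100A11 pseudogene entries of the table had at most 0.696 FPKM in any library.

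ANXA1, the annexin that S100A11 binds, is known as a mediator of glucocorticoid action and of the traffic of growth factor receptors. It was at 116, 112 and 115 FPKM with the vector and at 117, 119.8 and 119 FPKM with ADAMTS1. The groups did not overlap, but the gap between the highest vector and the lowest ADAMTS1 library was under 1 FPKM. The difference was 0.052 ± 0.024 on the log2 scale (limma unadjusted p = 0.0668, adjusted p = 0.444). The ratio of the S100A11 level to the ANXA1 level was 2.86, 3.10 and 2.98 in the vector libraries and 3.20, 3.21 and 3.08 in the ADAMTS1 libraries. Vector replicate 2 lay above ADAMTS1 replicate 3 in this ratio, so the groups overlapped.

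S100A10, the light chain of the annexin A2 complex, was at 212, 228 and 229 FPKM in the vector libraries and at 236, 235 and 232 FPKM in the ADAMTS1 libraries. The ADAMTS1 libraries were the higher, and vector replicate 1 was the lowest of all 6. The difference was 0.071 ± 0.034 on the log2 scale (limma unadjusted p = 0.0710, adjusted p = 0.453), and without that library it was 0.035. S100A10 (chromosome 1, 151982915 to 151993859) is the direct neighbour of S100A11 among the family genes on the chromosome.

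ANXA2 (ENSG00000182718, chromosome 15, 60347134 to 60402883, minus strand) encodes the heavy chain of that complex. It was at 112, 111 and 111 FPKM in the vector libraries and at 115, 119 and 116 FPKM in the ADAMTS1 libraries, so the groups did not overlap. The levels were 112 ± 0.581 and 117 ± 2.47 FPKM (SD, n = 3 each). The difference was 0.061 ± 0.024 on the log2 scale (limma unadjusted p = 0.0366, adjusted p = 0.374), and the unadjusted p was 0.0339 to 0.101 with single libraries left out.

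How reads were divided between ANXA2 and its copies is uncertain. ANXA2P2, a processed pseudogene on chromosome 9 with no introns, was itself listed at 73.6, 65.6 and 71.7 FPKM with the vector and 74.5, 78.9 and 77.4 FPKM with ADAMTS1. Its difference was 0.13 ± 0.046 (limma adjusted p = 0.342), in the direction of ANXA2, and again without overlap of the groups. The sum of both entries was 186, 177 and 183 FPKM with the vector and 189, 198 and 193 FPKM with ADAMTS1. A second copy, ANXA2P1, was at 0.430 to 0.813 FPKM over all libraries. The ratio of S100A10 to ANXA2 was 1.89, 2.05 and 2.06 with the vector and 2.06, 1.97 and 2.0 with ADAMTS1. Against the summed ANXA2 entries it was 1.14, 1.29 and 1.25, then 1.25, 1.19 and 1.20. The groups overlapped in both ratios.

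**Figure D2:**
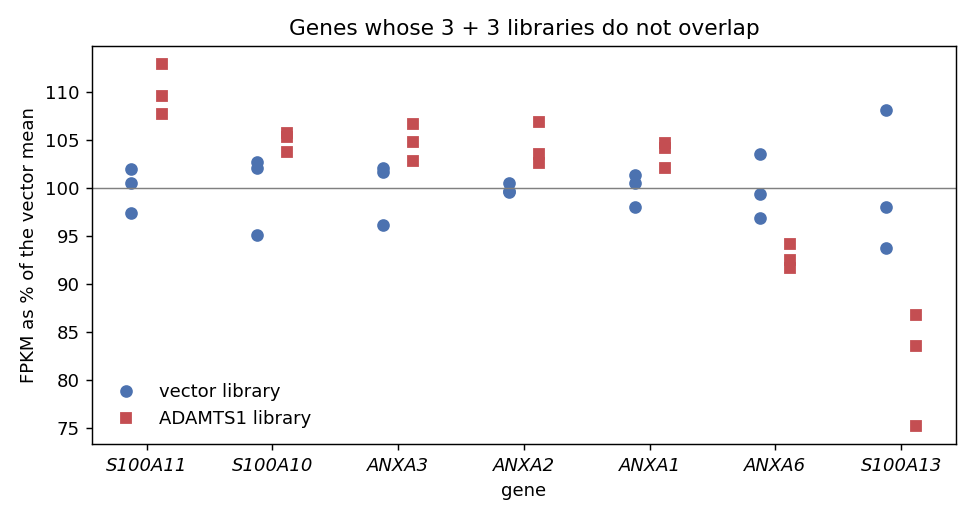
FPKM in each library as a percent of the vector mean, for the 7 genes whose groups did not overlap. Circles are vector libraries and squares are ADAMTS1 libraries; S100A11 in the ADAMTS1 libraries lay at 108% to 113% of the vector mean and S100A13 at 75.2% to 86.9%, while the other 5 genes lay within 10 percentage points of it.

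S100A13 takes part in the release of growth factors such as FGF1 that lack a signal peptide. The gene (ENSG00000189171, chromosome 1, 153618787 to 153631360, minus strand) was at 9.83, 8.90 and 8.52 FPKM in the vector libraries and at 6.83, 7.60 and 7.89 FPKM in the ADAMTS1 libraries. Each ADAMTS1 library lay below each vector library. The levels were 9.08 ± 0.672 and 7.44 ± 0.545 FPKM (SD, n = 3 each), a ratio of 0.819. The difference of −0.26 ± 0.066 on the log2 scale was the farthest from 0 among the 17 genes (limma unadjusted p = 0.00587, adjusted p = 0.238). It ranged from −0.30 to −0.20 with single libraries left out. S100A13 overlaps S100A1 on the other strand over 3435 bases, and without a stated strand setting their reads cannot be told apart there. S100A1, a regulator of calcium handling in muscle, was low, at 0.352, 0.406 and 0.345 FPKM with the vector and 0.250, 0.258 and 0.362 FPKM with ADAMTS1.

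ANXA6 (ENSG00000197043, chromosome 5, 151100706 to 151157785, minus strand) has a duplicated annexin core and is known for effects on membrane cholesterol and for the inactivation of Ras downstream of growth factor receptors. It was at 97.2, 91.0 and 93.4 FPKM in the vector libraries and at 88.4, 86.0 and 86.8 FPKM in the ADAMTS1 libraries. The groups did not overlap, with ADAMTS1 the lower. The levels were 93.9 ± 3.15 and 87.1 ± 1.20 FPKM (SD, n = 3 each), a ratio of 0.928. The difference was −0.11 ± 0.030 on the log2 scale (limma unadjusted p = 0.00899, adjusted p = 0.255), and −0.13 to −0.081 with single libraries left out.

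Highest in level of all members was S100A6, calcyclin, which binds annexin A11 and a ubiquitin ligase adaptor, and which ranked 41 of all 31835 genes by mean FPKM. It was at 445, 415 and 435 FPKM with the vector and at 433, 409 and 401 FPKM with ADAMTS1, groups that overlapped (difference −0.059 ± 0.038, limma adjusted p = 0.579). S100A11 ranked 53, S100A10 ranked 97 and S100A16 ranked 182. The first 3 are separated by more than their spread, since in each library S100A6 was above S100A11 and S100A11 above S100A10. S100A16, a broadly expressed member, was at 151, 143 and 143 FPKM and then at 132, 153 and 148 FPKM. The lowest and the highest of its values were both ADAMTS1 libraries, and the difference was −0.016 ± 0.056 (limma adjusted p = 0.932).

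ANXA11, the partner of S100A6, tethers RNA granules to lysosomes. It was at 13.3, 14.2 and 13.2 FPKM with the vector and at 13.5, 14.1 and 14.1 FPKM with ADAMTS1, with overlap (difference 0.033 ± 0.039, limma adjusted p = 0.788). ANXA5, which binds phosphatidylserine and serves as a reagent to mark dying cells, was at 115, 121 and 114 FPKM and then at 113, 118 and 114 FPKM. The groups again overlapped (difference −0.025 ± 0.032, limma adjusted p = 0.802). ANXA1, ANXA5 and ANXA2 had mean levels of 117, 116 and 114 FPKM over the 6 libraries. Their order changed from library to library, while ANXA6 lay below all of them in each.

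ANXA3, described as a marker of invasive tumours and as an inhibitor of phospholipase in vitro, was at 20.4, 20.3 and 19.2 FPKM with the vector and 21.3, 20.5 and 20.9 FPKM with ADAMTS1. These groups did not overlap, by a narrow margin (difference 0.065 ± 0.034, limma adjusted p = 0.503). ANXA7, or synexin, a factor in granule fusion, was at 41.7 to 43.9 FPKM in all libraries. ANXA4 of epithelial membranes was at 2.93 to 3.20 FPKM and ANXA9, an annexin whose core binds calcium poorly, at 1.68 to 2.63 FPKM. In these 3 genes the groups overlapped, and the limma adjusted p was 0.893, 0.926 and 0.816. The ANXA9 difference of 0.10 ± 0.14 on the log2 scale ranged from 0.015 to 0.24 with single libraries left out.

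S100A4, or metastasin, binds the heavy chain of non-muscle myosin and is known for promoting the spread of mammary tumours in mice. Its level in this metastatic line was modest, at 4.91, 4.80 and 4.79 FPKM with the vector and 5.08, 3.94 and 4.13 FPKM with ADAMTS1. ADAMTS1 replicate 1 was the highest of all 6 and the other 2 ADAMTS1 libraries the lowest, so the groups overlapped (difference −0.12 ± 0.080, limma adjusted p = 0.593). Without ADAMTS1 replicate 1 the difference was −0.21 (limma adjusted p = 0.358, against 0.358 to 0.841 over all single-library omissions). The table's S100A4 span holds the whole of S100A3 on the same strand, over 1930 bases, so the division of reads between them is uncertain. S100A3, a zinc-binding protein of the hair cuticle, was at 16.6, 12.3 and 12.7 FPKM and then at 12.2, 13.2 and 14.6 FPKM, with overlap. S100A2, a partner of p53 in epithelial cells, was at 9.13, 8.16 and 9.18 FPKM and then at 8.93, 8.98 and 9.72 FPKM, also with overlap. The differences were −0.046 ± 0.11 for S100A3 and 0.056 ± 0.056 for S100A2 on the log2 scale (limma adjusted p = 0.900 and 0.733). S100A2 was at 0.0065 without vector replicate 2, and at 0.0065 to 0.083 over all single-library omissions.

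**Figure D3:**
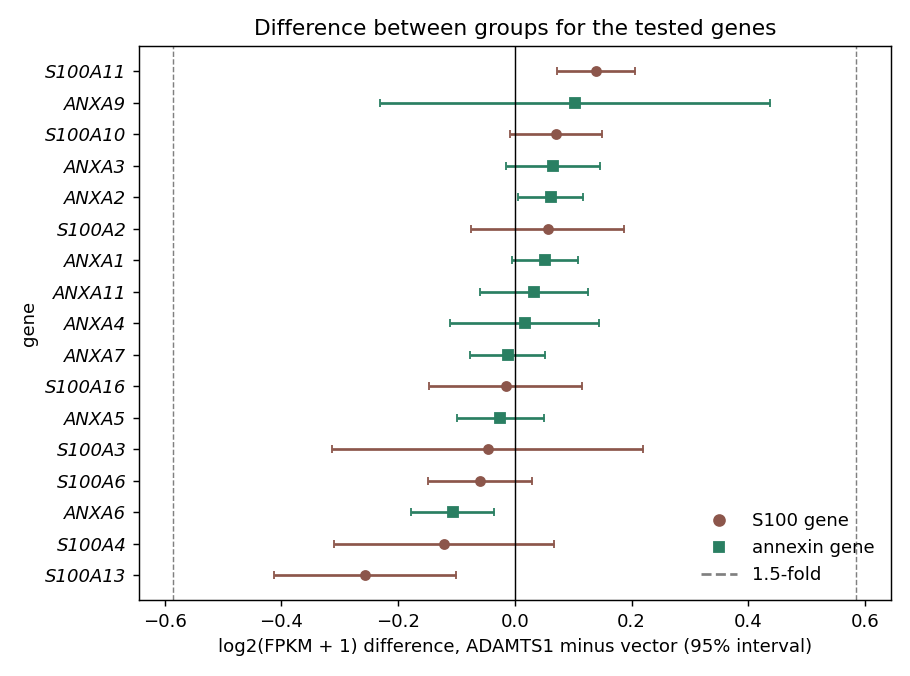
Log2(FPKM + 1) difference of the ADAMTS1 libraries from the vector libraries, with its 95% interval, for the 17 tested genes. Circles are S100 genes, squares are annexins and dashed lines mark 1.5-fold; no interval crosses a dashed line, and S100A11 and S100A13 stand at the ends with 0.14 and −0.26.

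The 8 genes under the level filter were S100A1, S100A5, S100A14, S100P, S100Z, ANXA8, ANXA10 and ANXA13. Their mean over the 6 libraries was 0.0048 to 0.697 FPKM, and no fold change is given for them. S100A5, a protein of olfactory neurons, was just under the filter, at 0.880, 0.750 and 0.826 FPKM with the vector and 0.625, 0.767 and 0.336 FPKM with ADAMTS1. ANXA9 was the tested member closest to the filter, with a mean of 2.12 FPKM. ANXA8 was at 0.322 to 0.355 FPKM in the vector and 0.206 to 0.284 FPKM in the ADAMTS1 libraries. It has a near-identical copy, ANXA8L1, at 0.0658 to 0.525 FPKM, with which it can share reads.

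After correction for relative depth, the lowest values stood in ratios of small whole numbers, within 0.06 of a whole number each. Taken as fragments, up to a common factor, S100A14 of epithelial cells had 3, 3 and 4 with the vector and 1, 4 and 2 with ADAMTS1. S100P, known from placenta and pancreatic tumours, had 1, 1 and 0 and then 3, 0 and 2. The leukocyte gene S100Z had 5, 2 and 0 and then 2, 1 and 0. ANXA10, a gene of gastric epithelium, had 3, 3 and 4 and then 9, 0 and 0, so that 1 ADAMTS1 library held the highest value and the other 2 were listed at 0. ANXA13, a gene of the intestine and kidney, had 1 in 1 library of each group and 0 in the others. The true number of fragments is unknown, since these values hold only up to that factor. These genes were not tested, and no difference is read from such low values.

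By sum, the S100 genes reached 1182, 1169 and 1186.45 FPKM with the vector and 1209, 1217 and 1185.82 FPKM with ADAMTS1, with overlap. This was 0.451% to 0.456% and 0.457% to 0.463% of the summed FPKM of each library. By that share the groups did not overlap, though by a narrow margin. The annexins reached 523, 518 and 515 FPKM and then 516, 527 and 517 FPKM, with overlap. Each sum rests on a few genes, since 4 S100 genes and 4 annexins had a mean above 50 FPKM.

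All but 2 of the S100 genes chosen here lie on chromosome 1, between 151982915 and 153632039 of hg38. That stretch of 1649 kb also holds the genes of the cornified skin envelope. The exceptions are S100P on chromosome 4 and S100Z on chromosome 5. The cluster had 34 entries with values, 11 S100 genes and 23 others. S100A10 and S100A11 sit at one end, and 9 genes from S100A6 to S100A1 sit in 97.4 kb at the other, 1487 kb away. No other entry of that stretch had a mean above 2.95 FPKM, the level of the skin gene FLG. Genes beyond its ends were not looked at. Within the 97.4 kb block, S100A6 and S100A16 had means of 423 and 145 FPKM, and their neighbours S100A5 and S100A14 had 0.697 and 0.120 FPKM. The 8 tested S100 genes of the cluster were not displaced in 1 direction, with 3 positive and 5 negative differences (S100A16 turned positive with a common upper quartile). Both genes of the S100A10 end were higher in the ADAMTS1 libraries, without overlap, while S100A13 at the other end was lower. FLG (difference 0.016 ± 0.058) and HRNR (0.025 ± 0.088), which encode long proteins with an S100-type domain, did not pass (limma adjusted p = 0.931 and 0.930).

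**Figure D4:**
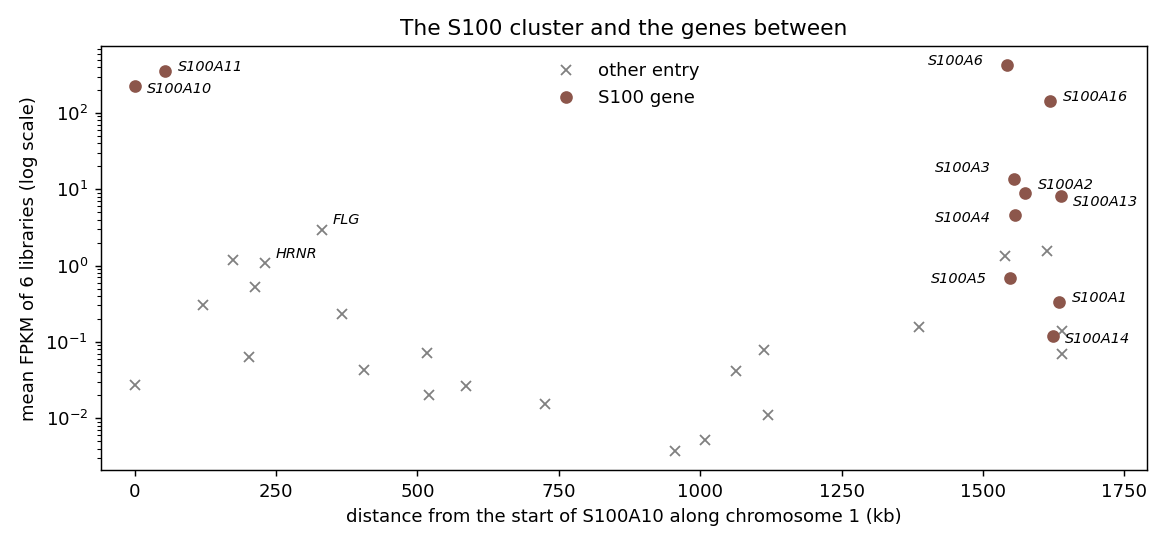
Mean FPKM over 6 libraries, on a log scale, against the distance in kb of each entry's start from the start of S100A10 along chromosome 1. Circles are the 11 S100 genes of the cluster and crosses the 23 other entries; 4 S100 genes stand above 100 FPKM while no cross stands above 2.95 FPKM.

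Genes that work with these families were taken as lists. Of 40 partners and effectors with values, 33 were tested and 1 passed, upward: PLAU, the urokinase activator of plasminogen. PLAU rose from 102 ± 2.15 to 120.0 ± 0.942 FPKM (SD, n = 3 each), by 0.24 ± 0.024 on the log2 scale (limma adjusted p = 0.0417). This call ended under most alternatives, among them any single library left out, no level filter, a common upper quartile and no variance trend. At an unadjusted p under 0.05 there were 3 higher and 4 lower of 33, beside 5.42% and 6.78% of all tested genes, and the list median was −0.027. PLAT, the tissue activator of plasminogen, was at 8.69 ± 0.541 and 9.83 ± 0.255 FPKM (limma adjusted p = 0.289), and MYH9, the myosin heavy chain bound by S100A4, at 240.0 ± 3.26 and 226 ± 4.88 FPKM (limma adjusted p = 0.255). PLAT and MYH9 were chosen after their values were seen. Of 4 tested receptors 0 passed. Those with the lowest p were AGER, the RAGE receptor for extracellular S100 proteins, at 1.83 ± 0.192 and 1.42 ± 0.237 FPKM, and ALCAM, at 70.0 ± 1.25 and 71.1 ± 1.87 FPKM (limma adjusted p = 0.419 and 0.804).

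Other proteins with EF hands gave 34 tested genes of 36 with values, and 0 passed, with 1 higher and 4 lower at an unadjusted p under 0.05, beside 5.42% and 6.78% of all tested genes, and a median of −0.032. The lowest p belonged to HPCAL1, a neuronal-type calcium sensor, at 68.4 ± 1.14 and 63.2 ± 0.562 FPKM (limma adjusted p = 0.188), and to CALM3, a calmodulin gene, at 81.5 ± 1.07 and 74.7 ± 2.41 FPKM (limma adjusted p = 0.209). Among 18 tested genes of membrane repair 0 passed, with 1 higher and 2 lower at an unadjusted p under 0.05, beside the same 5.42% and 6.78%, and a median of −0.030. Those with the lowest p were VPS4B, an ATPase that recycles the membrane-scission complex, at 14 ± 0.823 and 15.6 ± 0.173 FPKM, and MYOF, the membrane fusion protein myoferlin, at 87.7 ± 1.43 and 83.1 ± 2.03 FPKM (limma adjusted p = 0.285 and 0.342).

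ADAMTS1 itself was at 6.56 to 6.99 FPKM in the vector and 462 to 501 FPKM in the ADAMTS1 libraries, so each library matched its label. Relative depth, with vector replicate 1 set to 1, was 1.17 and 1.26 in the other vector libraries and 1.41, 1.04 and 1.43 in the ADAMTS1 libraries, and the absolute depth is unknown. Over all tested genes 8 passed the threshold, and 1452 had an unadjusted p under 0.05, 645 of them higher and 807 lower. Under scaling to a common upper quartile these were 847 higher and 545 lower. Of the line's markers, VIM, CD44, AXL, CAV1 and PLAU summed to 890.0 to 929 FPKM (vector) and 923 to 948 FPKM (ADAMTS1). In 4 of these the difference was positive. AXL was lower without overlap, at 299.9 ± 14.5 and 279 ± 3.03 FPKM (SD, n = 3 each, limma adjusted p = 0.342). The luminal and epithelial markers ESR1, PGR, ERBB2, CDH1 and EPCAM summed to 8.41 to 8.87 and 8.90 to 9.22 FPKM, mostly from ERBB2 and EPCAM, and CDH1 was listed at 0 in 3 libraries. Markers of blood cells (4 of 6 with values), endothelium (3 of 3) and of melanocytes or glia (4 of 4) each summed to under 0.5 FPKM in every library, and those of fibroblasts (4 of 5) to 1.02 to 1.37 FPKM. Nearly all of the fibroblast sum came from COL1A1, at 1.01 to 1.34 FPKM. Of the 4 keratinocyte markers only KRT10 had a value. It was at 16.6 to 17.3 and 18.2 to 20.4 FPKM, and its part in the results on S100 genes of epithelia was not tested.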

How the data were processed

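Total RNA was made into 6 libraries, 3 per group, with Illumina protocols, per the labels' protocols. The authors deposited 1 table of FPKM, which was used as it stands. The submitters' processing notes name the build hg38 and the tools StringTie, HISAT2 and FastQC; versions, roles, annotation, RNA selection and strand setting were not given in the sources used here.

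Of 32119 entries, 284 that repeated a symbol were dropped in favour of the entry with the highest mean. For genes with a mean of at least 1 FPKM, log2(FPKM + 1) was compared between groups by limma's two-sided moderated test (version 3.58.1, R 4.3.3, eBayes with trend, 4 residual degrees of freedom). The p-values were adjusted by Benjamini-Hochberg over all of these genes. The pseudocount shrinks differences of low genes. The script was tested on simulated data. FPKM are relative to the rest of the library and are not counts. Relative depth was the commonest ratio of low FPKM values (0.02 to 0.5) between libraries, computed with Python 3.11.15 and NumPy 2.4.6, with plots by Matplotlib 3.10.9. All 6 columns of values differed from one another, and the labels give no batch.

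Members and lists were chosen with earlier results of these data known. Each member was named. Values in every library were given for members with an unadjusted p under 0.05 or groups without overlap, the 8 highest in level, and known pairs. Library values of S100A1, S100A2, S100A3, S100A4, S100A5 and of the scarcest members, and the genes PLAT and MYH9, were added after their values were seen. From each list of partners the text names genes past the threshold, else those with the lowest p. Alternatives were another pseudocount, filter, scaling and variance model, the replicate block and each library left out. Promoters were those of RefSeq; for 20 of 23 members the bases after the start were found in a GENCODE 29 transcript of the gene.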

Additional observations from a re-analysis of the deposited data

How the results depend on the processing

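No S100 or annexin gene passed the threshold under any alternative, and the lowest limma adjusted p of any was 0.105 (S100A11 among genes with a mean of at least 5 FPKM), with 0.105 to 0.436 for S100A11 over all alternatives. The members at an unadjusted p under 0.05 numbered 3 to 6, and S100A11, S100A13 and ANXA6 were among them under each alternative; ANXA2 was not without trend, under the replicate block or with most single libraries left out. The count over all genes, 8, was 1 with no filter, 31 at a mean of at least 5 FPKM, 3 with a common upper quartile, 2 without trend and 1 with the replicate block, which also ended the call of PLAU, and 1 to 5 with single libraries left out. Same-numbered libraries did not deviate together (r = −0.002, 0.018 and −0.093), and r was −0.07 to 0.074 between differently numbered ones. With 3 libraries per group these values cannot settle whether the numbers mark pairs, which the labels do not say. The members' median was −0.016 with no filter and 0.032 with a common upper quartile. Under that scaling ANXA7 (0.0075) and S100A16 (0.0039) turned positive. With single libraries left out the sign turned in ANXA4 (−0.0088 to 0.039), ANXA5 (−0.044 to 0.0010), ANXA7 (−0.033 to 0.0031), S100A16 (−0.060 to 0.048) and S100A3 (−0.12 to 0.082), and the cause was not tested. The number of libraries, 3 per group, and the unknown depth limit what could be detected.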
